A study of Homo sapiens with 6 samples.

Results

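The catalytic subunits and the main partner subunits of the SWI/SNF, CHD, ISWI and INO80 families of ATP-dependent chromatin remodellers were followed in RNA sequencing of Jurkat cells, a human T-cell leukaemia line. The 42 genes were chosen by name as 24 SWI/SNF, 8 CHD, 5 ISWI and 5 INO80-family genes, out of 39012 rows in the gene table. All 42 were present, and all 42 were among the 14160 genes with enough reads to be tested. The study compared cells stably overexpressing SCML4 with cells carrying an empty vector (EV), with 3 libraries in each group. SCML4 encodes a protein related to the sex comb on midleg proteins of the Polycomb group. Cells of both groups had been stimulated with PMA at 100 ng/ml plus ionomycin at 1 µM for 6 h, so no unstimulated Jurkat cells enter any comparison. The labels do not say whether either line was a single clone or whether the libraries came from separate cultures, and each p-value therefore reflects the spread of the libraries alone, which may be technical.

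Remodellers use ATP to slide, evict or exchange nucleosomes, and each family is built around an ATPase of the Snf2 type. SWI/SNF complexes, called BAF, PBAF and ncBAF in human cells, open chromatin at enhancers and promoters, and in T cells BAF is recruited to chromatin soon after antigen-receptor signalling. ISWI complexes space nucleosomes, CHD proteins read methylated histone tails or act in the NuRD deacetylase complex, and INO80-family complexes exchange the histone variant H2A.Z. Several subunits exist as alternative paralogues, so the make-up of a complex can change with the proportions of their transcripts.

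All of the Snf2-type ATPases share the nucleotide-binding loop called Walker A, which contacts ATP. The sequences shown here are 75 bases of the coding strand from reference transcripts (GENCODE 29, GRCh38), 5′ to 3′. The codons of the Walker A loop are in capitals and the bases on either side in lower case. They were chosen because they carry the activity that defines the families, and because close paralogues encode nearly the same residues with different bases.
SMARCA4: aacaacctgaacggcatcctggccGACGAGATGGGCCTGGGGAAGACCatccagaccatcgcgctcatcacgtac
SMARCA2: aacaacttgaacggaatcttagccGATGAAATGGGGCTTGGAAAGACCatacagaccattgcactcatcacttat
SMARCA5: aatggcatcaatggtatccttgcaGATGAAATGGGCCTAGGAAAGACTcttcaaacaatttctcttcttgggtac
SMARCA1: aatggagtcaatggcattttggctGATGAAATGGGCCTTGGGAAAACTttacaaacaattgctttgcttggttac
CHD3: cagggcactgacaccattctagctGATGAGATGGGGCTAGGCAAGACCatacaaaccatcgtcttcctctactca
CHD4: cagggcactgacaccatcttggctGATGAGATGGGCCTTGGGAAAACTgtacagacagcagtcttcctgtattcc
CHD8: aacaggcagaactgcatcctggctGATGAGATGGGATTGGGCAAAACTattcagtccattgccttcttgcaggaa
CHD9: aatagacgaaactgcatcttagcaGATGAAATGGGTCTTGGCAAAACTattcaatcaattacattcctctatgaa
INO80: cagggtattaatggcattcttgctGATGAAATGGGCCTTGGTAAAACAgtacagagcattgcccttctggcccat
EP400: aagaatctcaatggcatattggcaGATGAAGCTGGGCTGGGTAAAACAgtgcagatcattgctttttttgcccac

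The capitals mark matches to the Walker A motif as codons for aspartate, glutamate, any residue, glycine, any residue whose codon has T at its centre, glycine, lysine and threonine, searched in frame on the coding strand of the longest coding sequence of each gene. This form was found in 15 of the 15 Snf2-type ATPases, in none of the other members, and in 25 of 19532 coding genes (0.128%). Its codons were set after a looser motif had been tried, so these counts describe the form chosen and do not test it. They are given for this form alone, so a member without a match can still encode another form of the loop. That includes the AAA+ ATPases RUVBL1 and RUVBL2. Between SMARCA4, on chromosome 19, and SMARCA2, on chromosome 9, 14 of the 75 bases differed and 0 of the 25 encoded residues did. The SMARCA4 stretch had a GC content of 60.0% and the SMARCA2 stretch 42.7%. SMARCA5 and SMARCA1 differed at 16 bases and 2 residues, and CHD4 and CHD3 at 17 bases and 2 residues. CHD1 and CHD2, whose stretches are not shown, differed at 20 bases and 3 residues. No count was made for CHD8 and CHD9. Over the longest coding transcripts of the 42 members, GC content ran between 37.3% (PHF10) and 64.3% (BCL7C), a spread that bears on a library described next.

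Whole reads could be recovered from the FPKM, with library totals of 8953671 to 10336597, and levels are given as counts per 1000000 of these reads (CPM). SCML4 itself had 570, 657 and 506 reads in the SCML4 libraries and 7, 2 and 1 reads in the EV libraries, and it was the only gene to pass an adjusted p of 0.05 among all genes tested (limma-trend on log2(CPM + 1), adjusted p = 1.64e-09; 0.00706% of genes). On log2(FPKM + 1) its adjusted p was 0.0619. All 9 T-lineage markers were detected, at a summed 2638 to 2712 CPM in SCML4 and 2348 to 2567 CPM in EV libraries. PAX5 of the B-cell list and LYZ of the myeloid list had no reads. The other members of both lists had reads in some or all libraries. Myeloid markers summed to 0.22 to 0.77 CPM in SCML4 and 0.41 to 0.73 CPM in EV libraries. For the epithelial or fibroblast list, all COL1A1, sums were 1.45 to 2.23 CPM in SCML4 and 1.66 to 2.68 CPM in EV libraries. The summed B-cell list, nearly all CD79A, came to 30.5 to 33.0 CPM in SCML4 and 21.6 to 33.6 CPM in EV libraries, and the part of these markers in any result was not tested. The labels' cell type entry also names ouabain, which no treatment entry lists. One of the libraries, EV replicate 1, did not group with the rest. Its score on the first principal component, which held 44.2% of the variance, was 24.8, against −7.17 to −2.10 for the other 5. Its deviations from the mean of all libraries were lower at higher GC content, with a Spearman rho of −0.77 over the 42 members against 0.05 to 0.50 in the other libraries. The plot of differences shows every member with and without EV replicate 1. The cause of its deviation was not tested.

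None of the 42 remodeller genes was called higher or lower in SCML4 cells. In bulk RNA such as this, fewer cells with a transcript and less transcript per cell cannot be told apart. The share called was 0 of 42, against 0.00706% of all genes, by limma-trend with Benjamini-Hochberg adjustment over 14160 genes. Members had adjusted p-values between 0.866 and 0.996, and limma-voom with library weights also called 0. At an unadjusted p under 0.05 there were 2 members, SMARCD2 and RUVBL2 (4.76%), against 5.27% of all genes. The SCML4 minus EV difference on the log2(CPM + 1) scale was positive in 21 members and negative in 21, with a median of 0.004, against 52.4% positive and a median of 0.008 over all genes tested. In 5 members every SCML4 library was above every EV library (11.9%, against 6.29% of all genes), and in 2 every SCML4 library was below (4.76%, against 5.36%), so 7 of 42 did not overlap (16.7%, against 11.6%).

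Each member had at least 50 reads in every library. The reads behind a member, not divided by its length, averaged 8.29 to 495 CPM, with a median of 105 CPM against 31.0 CPM for genes tested. The median coefficient of variation within a group was 4.35% in SCML4 libraries and 7.02% in EV libraries. The 95% confidence interval of the difference had a median half-width of 0.19 on the log2 scale, against 0.27 over all genes tested. For 36 of the 42 members the whole interval lay within a 1.3-fold difference in either direction, and for 39 within 1.5-fold. The 3 members whose intervals reached past 1.5-fold were DPF1, BCL7C and SMARCA1, with 8.64, 12.0 and 9.94 CPM on average. A p that misses the threshold does not show that the groups were equal, and these intervals give the sizes the libraries could not separate.

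**Figure D1:**
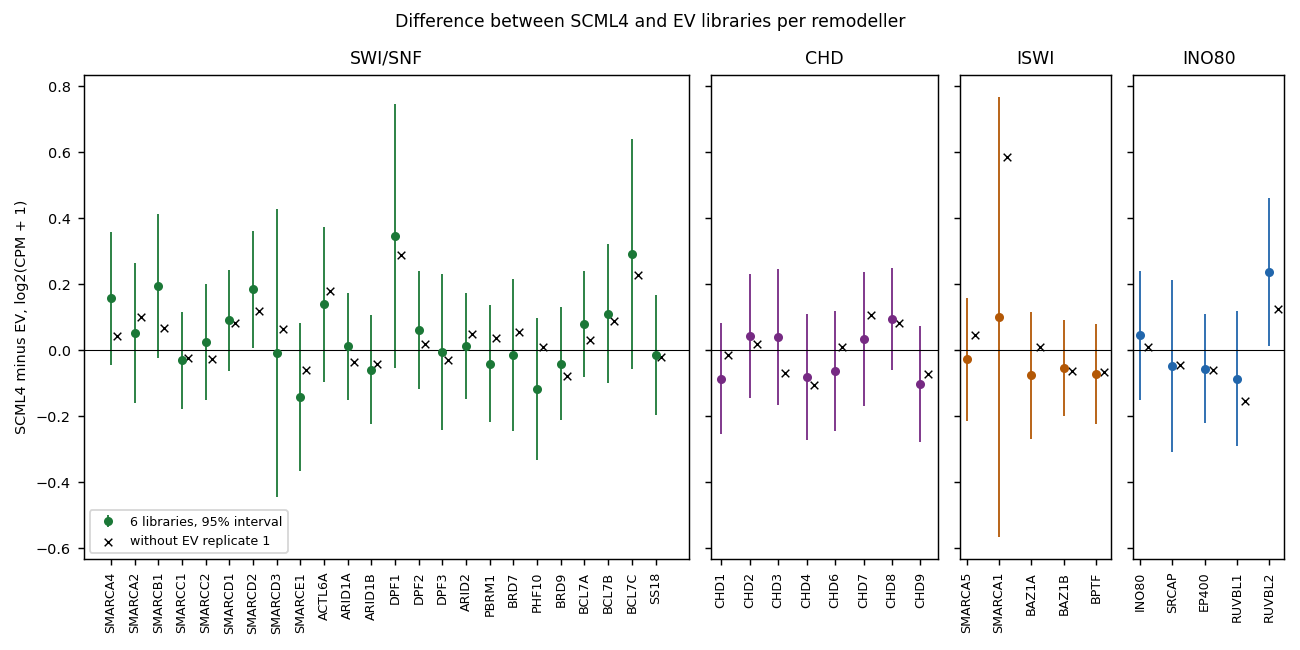
SCML4 minus EV difference of each of the 42 remodeller genes on the log2(CPM + 1) scale, by family, with 95% confidence intervals from limma-trend on all 6 libraries, and the difference without EV replicate 1 as a second symbol. The differences lie between −0.14 (SMARCE1) and 0.35 (DPF1), and SMARCA1 has the widest interval, −0.57 to 0.77.

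SMARCA4 (BRG1) and SMARCA2 (BRM) are the mutually exclusive motors of SWI/SNF. SMARCA4 had 511, 474 and 513 CPM in SCML4 libraries, against 382, 476 and 493 CPM in EV libraries. The groups overlapped, and the lowest value was that of EV replicate 1. Its difference was 0.16 on the log2 scale (95% interval −0.04 to 0.36, adjusted p = 0.866 by limma-trend), or 0.04 without EV replicate 1. SMARCA2 had 53.3, 51.2 and 59.6 CPM in SCML4 libraries and 56.2, 53.3 and 48.5 CPM in EV libraries, again overlapping, with a difference of 0.05 (adjusted p = 0.950 by limma-trend), or 0.10 without EV replicate 1. SMARCA2 made up 9.87% ± 0.50 of the reads of both motors in SCML4 cells and 10.6% ± 2.0 in EV cells (SD, n = 3 each). Per kilobase of longest coding transcript that share was 8.24% in SCML4 and 8.89% in EV cells, and per kilobase of union exon length 8.50% and 9.17% in SCML4 and EV cells, so the predominance of SMARCA4 held for either length.

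The core subunits stay with either motor. SMARCB1 (SNF5), which contacts the nucleosome face opposite the motor, had 107.3, 107.7 and 107.0 CPM in SCML4 libraries, against 78.5, 103.6 and 101.0 CPM in EV libraries. The SCML4 values were all higher and nearly equal to each other, and the low EV value was again replicate 1. Its difference was 0.19 (95% interval −0.02 to 0.41, adjusted p = 0.866 by limma-trend), and 0.07 without EV replicate 1. SMARCD1 and SMARCD2, alternative BAF60 scaffold subunits, also did not overlap between groups. SMARCD1 had 192, 195 and 192 CPM in SCML4 libraries and 179, 176 and 189 CPM in EV libraries, a difference of 0.09 with EV replicate 1 and 0.08 without it (adjusted p = 0.890 by limma-trend on all libraries). SMARCD2 had 131, 125 and 132 CPM in SCML4 libraries, against 104, 121 and 117 CPM in EV libraries. Its difference of 0.18 had a 95% interval of 0.01 to 0.36, with an unadjusted p of 0.042 and an adjusted p of 0.866 by limma-trend, and came to 0.12 without EV replicate 1.

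The remaining BAF60 paralogue, SMARCD3, best known from heart and muscle, had 6.07, 7.74 and 11.3 CPM in SCML4 libraries and 9.14, 7.14 and 8.37 CPM in EV libraries. The groups overlapped, and its share of BAF60 reads was 2.52% ± 0.78 in SCML4 and 2.71% ± 0.39 in EV cells (SD, n = 3 each). SMARCD1 made up 58.4% ± 1.1 of BAF60 reads in SCML4 cells and 59.8% ± 1.8 in EV cells (SD, n = 3 each), and the groups overlapped. The scaffold paralogues SMARCC1 (BAF155) and SMARCC2 (BAF170) also overlapped between groups. SMARCC1 averaged 344 ± 2.5 CPM in SCML4 cells and 352 ± 10.8 CPM in EV cells (SD, n = 3 each), and SMARCC2 took 21.9% ± 0.39 of the reads of this pair in SCML4 cells and 21.3% ± 1.6 in EV cells (SD, n = 3 each). ACTL6A, the actin-related subunit of proliferating cells, averaged 36.7 ± 3.4 CPM in SCML4 and 33.2 ± 2.3 CPM in EV cells (SD, n = 3 each). SMARCE1, the HMG-domain subunit, had 37.5, 38.4 and 40.4 CPM in SCML4 libraries and 48.1, 40.3 and 40.7 CPM in EV libraries, the lowest difference of any member over all libraries at −0.14 (adjusted p = 0.876 by limma-trend), or −0.06 without EV replicate 1. SMARCE1 levels are uncertain, because its pseudogene SMARCE1P5 held reads equal to 37.0% of its own.

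The subunits that set BAF apart from PBAF and ncBAF gave no called gene either. ARID1A, the large DNA-binding subunit of BAF, averaged 497 ± 21.4 CPM in SCML4 cells and 493 ± 30.8 CPM in EV cells (SD, n = 3 each). Its alternative ARID1B took 24.1% ± 1.1 of the reads of both in SCML4 cells and 25.1% ± 1.6 in EV cells (SD, n = 3 each). Per kilobase of longest coding transcript the ARID1B share was 20.2% in SCML4 and 21.0% in EV cells, and per kilobase of union exon length 10.2% in SCML4 and 10.7% in EV cells. For PBAF, ARID2 averaged 184 ± 7.4 CPM in SCML4 and 182 ± 7.9 CPM in EV cells, and PBRM1, the polybromo subunit, 233 ± 10.3 CPM in SCML4 and 240 ± 23.0 CPM in EV cells (SD, n = 3 each). PHF10 (BAF45A) had 126, 127 and 129 CPM in SCML4 libraries, against 165, 129 and 124 CPM in EV libraries. The high value was EV replicate 1, and the difference was −0.12 with it and 0.01 without it. Differences of 3 of the 4 PBAF subunits were negative over all libraries, and all 4 were positive without EV replicate 1.

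BRD9, the bromodomain subunit of ncBAF, took 79.3% ± 1.5 of the reads of BRD9 and BRD7 in SCML4 cells and 79.5% ± 2.8 in EV cells (SD, n = 3 each). BRD7, its PBAF counterpart, is uncertain. The pseudogene BRD7P2 was listed with 151 ± 2.1 CPM in SCML4 and 146 ± 4.6 CPM in EV cells (SD, n = 3 each). That was 356% of the reads of BRD7 itself. BRD7 also shares 42.4% of its annotated exonic bases with other genes, so the BRD9 share is uncertain too. Among the BAF45 paralogues, PHF10 took 49.0% ± 0.99 of the reads in SCML4 cells and 52.2% ± 5.0 in EV cells, and DPF2 37.2% ± 0.85 in SCML4 and 35.0% ± 3.8 in EV cells (SD, n = 3 each). The order of these genes turned with the length used: per kilobase of longest coding transcript DPF2 held 47.0% in SCML4 and 45.0% in EV cells, above PHF10 with 39.4% in SCML4 and 42.8% in EV cells. Per kilobase of union exon length DPF2 held 30.3% in SCML4 and 28.4% in EV cells, below PHF10 with 55.6% in SCML4 and 58.9% in EV cells. PHF10 levels and shares are uncertain, because its pseudogene PHF10P1 held reads equal to 19.5% of its own. DPF1, known as a neuronal BAF45 subunit, had 9.05, 8.13 and 12.3 CPM in SCML4 libraries and 6.75, 8.92 and 6.71 CPM in EV libraries. Its values overlapped, and its difference was 0.35 (95% interval −0.05 to 0.74, adjusted p = 0.866 by limma-trend), or 0.29 without EV replicate 1. Without SCML4 replicate 3, its highest library, it was 0.19. BCL7C, one of the small BCL7 subunits, differed by 0.29, or 0.23 without EV replicate 1, with 11.1, 15 and 13.9 CPM in SCML4 libraries, against 9.66, 9.92 and 12.5 CPM in EV libraries (95% interval −0.06 to 0.64, adjusted p = 0.866 by limma-trend). The other BCL7 subunits, BCL7A and BCL7B, averaged 238 ± 8.1 and 60.6 ± 5.9 CPM in SCML4 cells. In EV cells they averaged 226 ± 13.1 and 55.9 ± 2.9 CPM (SD, n = 3 each). DPF3, a further BAF45 paralogue, averaged 26.1 ± 1.3 CPM in SCML4 and 26.2 ± 1.0 CPM in EV cells (SD, n = 3 each). SS18, the subunit fused to SSX in synovial sarcoma, averaged 60.0 ± 1.9 CPM in SCML4 and 60.6 ± 0.78 CPM in EV cells (SD, n = 3 each). All of these overlapped between groups. Over the whole SWI/SNF family 14 of 24 differences were positive, with a median of 0.02, and without EV replicate 1 there were 16, with a median of 0.04.

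**Figure D2:**
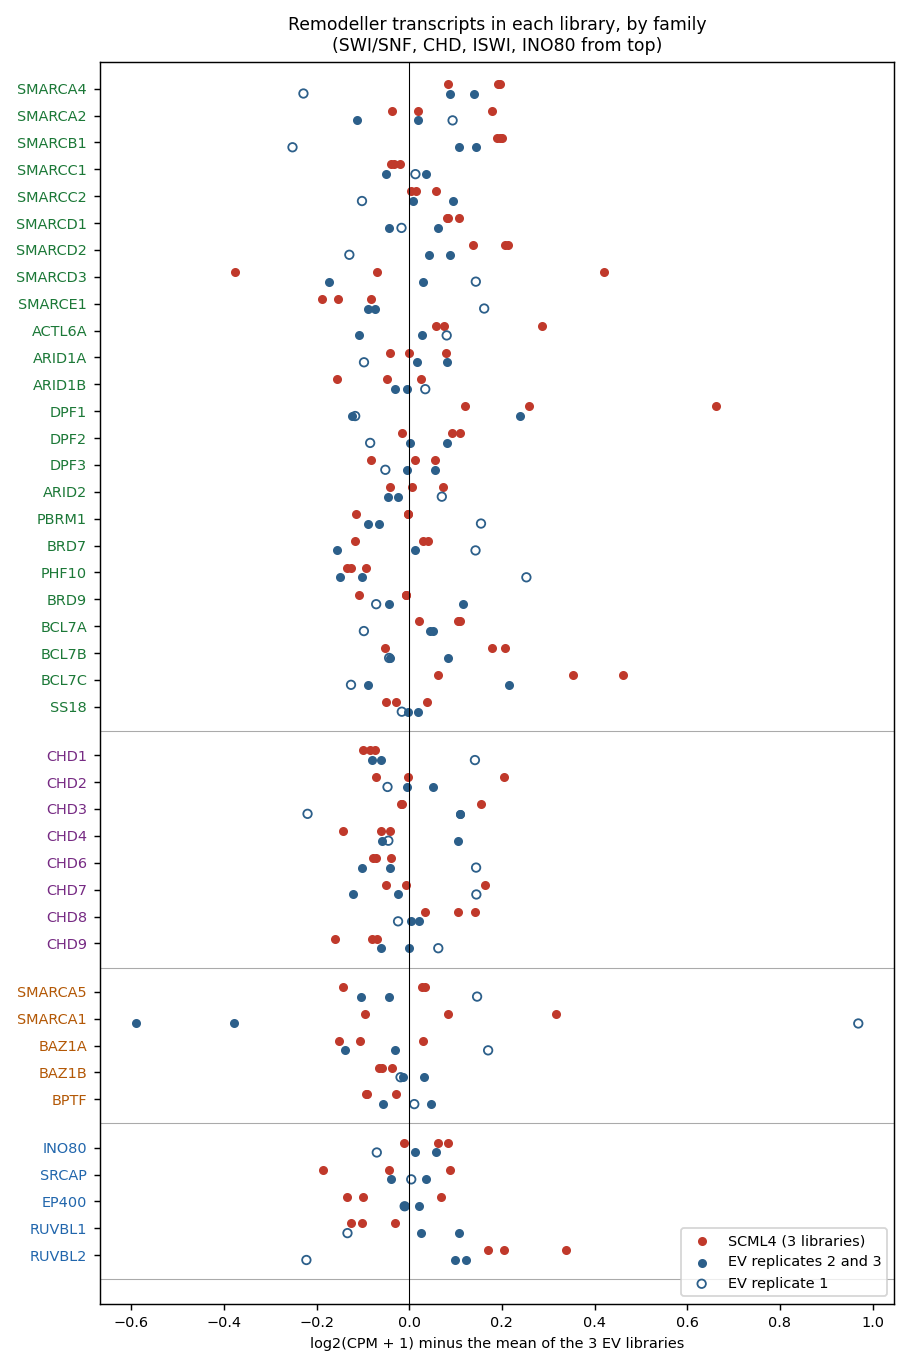
Level of each remodeller gene in each library, as log2(CPM + 1) minus the mean of the 3 EV libraries, ordered by family. The widest spread is that of SMARCA1 in the EV libraries, and EV replicate 1 was the library farthest from the mean of all libraries in 20 of the 42 genes.

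Differences of the 8 CHD ATPases were positive in 4 and negative in 4, and their median was −0.01. CHD1, which binds methylated lysine 4 of histone H3, had 234, 237 and 239 CPM in SCML4 libraries and 277, 241 and 238 CPM in EV libraries. CHD2, its close paralogue, had 112, 118 and 136 CPM in SCML4 libraries and 114, 122 and 118 CPM in EV libraries. Both overlapped between groups, and CHD1 took 66.1% ± 2.1 of the reads of this pair in SCML4 cells and 68.0% ± 2.5 in EV cells (SD, n = 3 each). The NuRD motors were unequal in reads. CHD3 had 279, 279 and 315 CPM in SCML4 libraries, against 242, 305 and 305 CPM in EV libraries, and CHD4 had 59.1, 63.5 and 62.7 CPM in SCML4 libraries, against 63.3, 70.4 and 62.7 CPM in EV libraries. CHD3 thus took 82.5% ± 0.96 of the reads of the pair in SCML4 cells and 81.2% ± 1.8 in EV cells (SD, n = 3 each), with overlapping groups. The CHD3 share was also 81.0% in SCML4 and 79.6% in EV cells per kilobase of longest coding transcript. CHD4 is uncertain, since 53.5% of its annotated exonic bases are shared with exons of other annotated genes and the sources used here do not say how the counting treated such reads or strand.

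CHD6, CHD7, CHD8 and CHD9 form a further subfamily. CHD8, a regulator of Wnt targets and a gene linked to autism, had 197, 188 and 202 CPM in SCML4 libraries, against 180, 184 and 186 CPM in EV libraries. CHD9 had 80.8, 76.3 and 81.4 CPM in SCML4 libraries, against 89.3, 85.4 and 81.8 CPM in EV libraries. Neither gene overlapped between groups, in opposite directions, yet neither passed the test: CHD8 differed by 0.09 (adjusted p = 0.879 by limma-trend; 0.08 without EV replicate 1) and CHD9 by −0.10 (adjusted p = 0.889; −0.07 without it). CHD8 took 41.2% ± 0.42 of the reads of the 4 genes in SCML4 cells and 39.0% ± 2.1 in EV cells, and CHD9 16.8% ± 0.26 in SCML4 and 18.2% ± 0.57 in EV cells (SD, n = 3 each). CHD6 had 106, 109 and 107 CPM in SCML4 libraries and 124, 104 and 109 CPM in EV libraries. CHD7, the gene mutated in CHARGE syndrome, had 89.1, 86.5 and 100.4 CPM in SCML4 libraries and 99.2, 82.3 and 88.1 CPM in EV libraries. Both of these overlapped between groups.

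SMARCA5 (SNF2H) and SMARCA1 (SNF2L) are the ISWI motors. SMARCA5 had 178, 177 and 157 CPM in SCML4 libraries, against 193, 162 and 169 CPM in EV libraries, an overlapping pair of groups with a difference of −0.03 (adjusted p = 0.972 by limma-trend), or 0.05 without EV replicate 1. SMARCA1 had 86, 117 and 74 reads in SCML4 libraries, or 9.49, 11.3 and 8.26 CPM, against 177, 50 and 64 reads in EV libraries, or 18.4, 5.58 and 6.61 CPM. The EV values thus lay on both sides of all SCML4 values, with EV replicate 1 at the top. Over all 6 libraries the difference was 0.10 (95% interval −0.57 to 0.77, adjusted p = 0.971 by limma-trend). Without EV replicate 1 it was 0.59 (95% interval 0.19 to 0.98, unadjusted p = 0.0055, adjusted p = 0.465). SMARCA1 deviated by 0.92 from its mean in EV replicate 1 on the log2 scale, against −0.01 to 0.31 for the other 13 members among the 14 of lowest GC content.

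As a share of the reads of both ISWI motors, SMARCA1 held 5.06%, 6.00% and 4.99% in SCML4 libraries and 8.71%, 3.33% and 3.77% in EV libraries. The means were 5.35% ± 0.56 in SCML4 and 5.27% ± 2.99 in EV cells (SD, n = 3 each), and without EV replicate 1 the EV mean was 3.55%. The partner subunits are large proteins that direct the motors. BAZ1B (WSTF), a gene deleted in Williams syndrome, had 431, 433 and 439 CPM in SCML4 libraries, against 445, 447 and 461 CPM in EV libraries. Its groups did not overlap, but its difference was −0.05 (95% interval −0.20 to 0.09, adjusted p = 0.927 by limma-trend), or −0.06 without EV replicate 1. BAZ1A (ACF1) averaged 200 ± 13.3 CPM in SCML4 and 212 ± 23.5 CPM in EV cells, and BPTF, the large NURF subunit, 298 ± 7.6 CPM in SCML4 and 313 ± 11.4 CPM in EV cells (SD, n = 3 each). Differences of 4 of the 5 ISWI genes were negative over all libraries, and 2 were without EV replicate 1.

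In the INO80 family, INO80 had 51.7, 51.0 and 48.4 CPM in SCML4 libraries and 46.4, 49.2 and 50.8 CPM in EV libraries. SRCAP, which deposits H2A.Z, had 23.6, 19.3 and 21.4 CPM in SCML4 libraries and 22.2, 21.5 and 22.7 CPM in EV libraries. EP400, the motor of the TIP60 complex, had 201, 196 and 226 CPM in SCML4 libraries and 214, 214 and 218 CPM in EV libraries. All 3 overlapped between groups, with differences of 0.04 (INO80), −0.05 (SRCAP) and −0.06 (EP400), or 0.01, −0.05 and −0.06 in the same order without EV replicate 1. SRCAP shares 76.0% of its annotated exonic bases with other genes, and the pseudogene EP400P1 had 31.0% as many reads as EP400, so both levels are uncertain. EP400P1 itself had 61.7 ± 2.6 CPM in SCML4 and 69.2 ± 0.64 CPM in EV cells (SD, n = 3 each; adjusted p = 0.866 by limma-trend).

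RUVBL1 and RUVBL2 are AAA+ ATPases that assemble into a shared ring in the INO80, SRCAP and TIP60 complexes. RUVBL2 had 82.6, 73.5 and 75.3 CPM in SCML4 libraries, against 55.8, 69.9 and 71.1 CPM in EV libraries, with no overlap and a difference of 0.24 (95% interval 0.01 to 0.46, unadjusted p = 0.039, adjusted p = 0.866 by limma-trend). Without EV replicate 1, its lowest library, the difference was 0.13 (95% interval −0.04 to 0.30). RUVBL1 had 53.6, 50.1 and 50.9 CPM in SCML4 libraries and 49.8, 55.8 and 59.1 CPM in EV libraries, with overlap and a difference of −0.09, or −0.15 without EV replicate 1. RUVBL1 made up 40.1% ± 0.64 of the reads of both in SCML4 cells and 45.7% ± 1.4 in EV cells (SD, n = 3 each), and −4.80 percentage points separated the groups without EV replicate 1, against −5.57 with it. The reads of RUVBL1 had a divisor common to all 6 libraries restored in the recovery, and the size of its share rests on that step. The exact two-sided permutation test gave p = 0.1, the smallest that 3 libraries against 3 allow, and 0.767 after adjustment over 23 shares.

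Read shares were compared in 13 sets of paralogues in all, 23 shares altogether, and 3 did not overlap between groups: those of RUVBL1, CHD8 and CHD9. Each of the 3 had the smallest exact permutation p allowed, 0.1, so the design could not bring any share below the threshold. That 0.1 is also the rate at which random group labels separate 3 libraries from 3. The CHD8 and CHD9 shares come from the same set and are not independent. No rate over other gene sets was measured. The CHD8 share was 2.28 percentage points higher in SCML4 cells, or 1.09 without EV replicate 1, and the CHD9 share 1.40 points lower, or 1.42 without it.

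**Figure D3:**
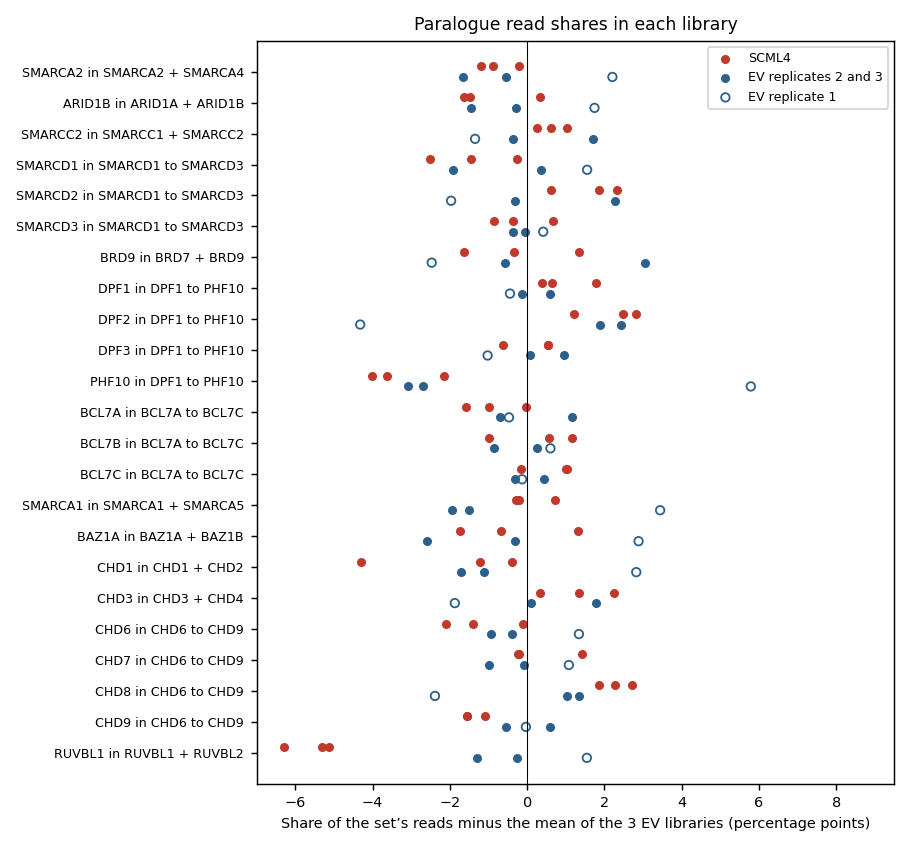
Share of the reads of each paralogue set held by the named member in each library, in percentage points relative to the mean of the 3 EV libraries, SCML4 and EV libraries as separate symbols. The RUVBL1 share lies below all EV libraries in each of the 3 SCML4 libraries, and the PHF10 and SMARCA1 shares have their highest value in EV replicate 1.

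The shares above are of reads unless given per kilobase. Levels of different genes were ordered per kilobase, using both the longest coding transcript and the union of exons, and an order is stated only where both gave it. Over the 42 members the lengths gave similar orders (Spearman rho 0.93 across genes, which share the reads and are not replicates). Among the motors, SMARCA4 led with 81.9 CPM per kilobase of longest coding transcript (30.1 per kilobase of exon), followed by CHD3 with 39.1 (29.5), while SMARCA1 had 2.42 (2.28) and SRCAP 1.86 (1.60). Between these, CHD1 had 30.2 CPM per kilobase of longest coding transcript (23.4 of exon) and SMARCA5 21.8 (20.6). At the low end, CHD9 had 6.29 CPM per kilobase of longest coding transcript (5.00 of exon) and SMARCA2 7.60 (2.89). The length definitions order these 2 differently. The places of SRCAP and CHD4 in the order are uncertain, since they share 76.0% and 53.5% of their annotated exonic bases with other genes.

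**Figure D4:**
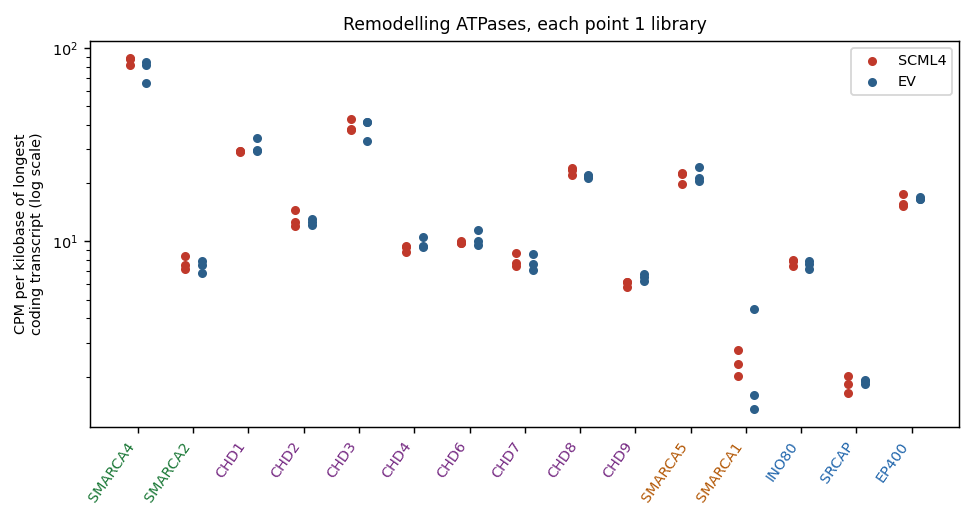
CPM per kilobase of longest coding transcript, on a log scale, of the remodelling ATPases in each library, SCML4 libraries left of EV libraries for each gene. SMARCA4 stands highest near 82 and SRCAP, whose level is uncertain, lowest near 1.86. The highest EV point of SMARCA1 is EV replicate 1.

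The relation of the differences to GC content was measured with and without EV replicate 1. Over the 42 members the difference was higher at higher GC content of the longest coding transcript, with a Spearman rho of 0.51 over all libraries, 0.12 when EV replicate 1 was left out and 0.08 once values had been corrected for GC content and length. Over all genes with a known GC content the same rho was 0.34 with all libraries and 0.03 without EV replicate 1. These correlations describe genes measured in the same libraries. In the 14 members of lowest GC content 4 differences were positive over all libraries and 9 without EV replicate 1. In the 14 of highest GC content 9 were positive and 8 without it. The median deviation of EV replicate 1 was 0.16 in the lowest 14 and −0.16 in the highest 14 on the log2 scale. Of the 5 members higher without overlap, SMARCB1, SMARCD2 and RUVBL2 had GC contents of 59.6%, 58.8% and 60.1%, in the highest 14, while SMARCD1 with 54.7% and CHD8 with 49.3% were in the middle 14. Of the 2 lower, CHD9 had 38.4%, in the lowest 14, and BAZ1B 47.9%, in the middle 14. The part of EV replicate 1 in their values was measured only as the difference without it, given beside each.

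**Figure D5:**
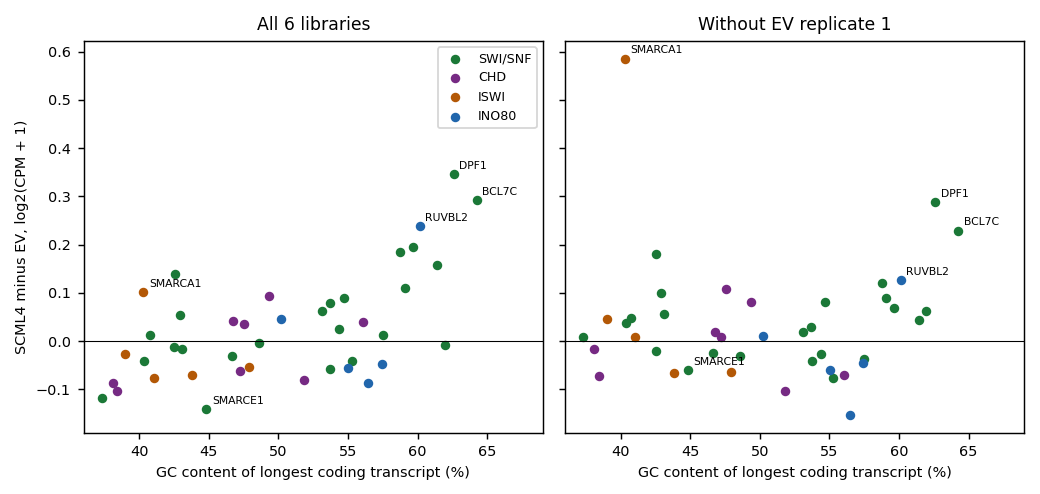
SCML4 minus EV difference on the log2(CPM + 1) scale against the GC content of the longest coding transcript (percent), each point 1 remodeller gene, with all 6 libraries and without EV replicate 1. Spearman rho with GC content is 0.51 over all libraries and 0.12 without that library.

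Genes encoding other subunits and Snf2-type ATPases were examined as a listed group of 62, of which 61 were tested. None was called by limma-trend, and 0 by limma-voom with library weights. At an unadjusted limma-trend p under 0.05 there were 5 of the 61, against 746 of the 14160 genes tested (5.27%). Differences were positive in 25 and negative in 36, with a median of −0.03, against 52.4% positive and a median of 0.008 over all genes tested. Whether the listed genes differ from all genes in this was not tested. HELLS (LSH), a Snf2-type ATPase needed in mouse cells for DNA methylation of repeats, had 133, 142 and 116 CPM in SCML4 libraries, against 175, 169 and 163 CPM in EV libraries. The groups did not overlap, and the difference was −0.38 (SE 0.09, 95% interval −0.56 to −0.19, adjusted p = 0.737 by limma-trend), or −0.35 without EV replicate 1 (adjusted p = 0.154). ERCC6 (CSB), the ATPase of transcription-coupled repair, had 21.5, 20.7 and 19.7 CPM in SCML4 libraries, against 31.6, 24.6 and 24.5 CPM in EV libraries, a difference of −0.36, or −0.24 without EV replicate 1 (adjusted p = 0.866 over all libraries).

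MTA3, a NuRD subunit, had 58.0, 60.3 and 62.4 CPM in SCML4 libraries, against 48.0, 54.1 and 52.7 CPM in EV libraries, higher without overlap by 0.22 on the log2 scale, or 0.17 without EV replicate 1. INO80E, a subunit of the INO80 complex, had 77.0, 73.4 and 88.9 CPM in SCML4 libraries and 58.8, 67.8 and 74.4 CPM in EV libraries, with overlap and a difference of 0.25, or 0.16 without EV replicate 1. Neither passed the test (adjusted p = 0.866 for each by limma-trend). The 6 other Snf2-type ATPases in the list all had negative differences over the 6 libraries, with a median of −0.12, and 2 of them were positive without EV replicate 1.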

How the data were processed

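Gene-level FPKM of 6 mRNA libraries, 3 per group, were used as deposited by the authors, per the file headers; FastQC, STAR, SAMtools and the hg19 build are named in the submitters' processing notes, and which tool and annotation served for counting is not given in the sources used here. In each row the FPKM were whole multiples of a step, which gave the reads behind them (100% of 23897 rows above 0, within 0.002 read). A divisor common to all 6 values was restored in 718 rows by requiring a whole implied length; one that remains unseen would change a gene's level, its share and whether it is tested, but not its ratio between libraries. The gene lengths implied by the FPKM did not follow the named genes (Spearman rho −0.03 over 23608 genes), so reads per 1000000 (CPM) were analysed in place of FPKM and levels were divided by GENCODE 29 lengths. The test on log2(FPKM + 1) is an alternative.

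The members and gene lists were chosen with earlier results of these data known. The test was limma-trend (limma 3.58.1, R 4.3.3) on log2(CPM + 1) of genes averaging 10 reads or more, adjusted by Benjamini-Hochberg and called at 0.05. Named in full were members that were called, members of at least 10 CPM whose groups did not overlap, all catalytic ATPases, the paralogue sets, and the 4 listed partners of smallest p. Shares were compared by exact permutation (scipy 1.17.1). Scripts were tested on simulated data. Alternatives changed the unit, filter, pseudocount, scaling, weighting and GC correction, and left out each library; shares per kilobase of transcript were added after seeing the data. The 1.3-fold and 1.5-fold bounds on the intervals and the codons required in the Walker A search were also set after values had been seen: a looser motif and a narrower bound were tried first and replaced.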

Additional observations from a re-analysis of the deposited data

How the results depend on the processing

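No remodeller member and no listed partner was called under any of the 18 alternatives run, and the lowest adjusted p of any member over all of them was 0.465 (SMARCA1 without EV replicate 1). The count of genes called over all genes tested was 1, and it was 0 on log2(FPKM + 1) (781 at an unadjusted p under 0.05), 2 with median-ratio scaling, 3 with quantile normalisation, 14 with limma-voom and library weights, 2 with the replicate block, 3 after GC and length correction, and 1 to 14 with each library left out, 14 being without EV replicate 1. Deviations of same-numbered libraries had r of −0.057, −0.113 and −0.048. These were taken within groups of 3, where EV replicate 1 stands apart, so they cannot show whether the numbers pair the libraries. The block changed no member's call. Shares without overlap numbered 3, and 4 to 7 with each library left out. Smaller groups separate more often under random labels, so these counts cannot be compared with each other. Of 756 member values under alternatives 709 kept their sign and their side of the threshold and 47 changed sign, in 19 members, none of them with a difference beyond 0.118 (PHF10) over all libraries. With library weights the sign changed in SMARCC2 (−0.0066), SMARCD3 (0.0046), ARID1A (−0.0355), PBRM1 (0.0216), BRD7 (0.0531), CHD3 (−0.0575), SMARCA5 (0.0470) and BAZ1A (0.0076). After GC and length correction it changed in SMARCC2 (−0.0048), ARID1A (−0.0206), PBRM1 (0.0251), BRD7 (0.0278), SS18 (0.0235) and SMARCA5 (0.0426), and with a pseudocount of 5 CPM in SMARCD3 (0.0004). With each library left out, ranges crossed 0 for SMARCA2 (−0.0097 to 0.10), SMARCC2 (−0.0259 to 0.0721), SMARCD3 (−0.22 to 0.18), ARID1A (−0.0368 to 0.0529), DPF3 (−0.0350 to 0.0337), ARID2 (−0.0174 to 0.0480), PBRM1 (−0.0850 to 0.0371), BRD7 (−0.0939 to 0.0558), PHF10 (−0.19 to 0.0085), BRD9 (−0.0764 to 0.0172), SS18 (−0.0387 to 0.0048), CHD2 (−0.0378 to 0.10), CHD3 (−0.0698 to 0.0949), CHD6 (−0.11 to 0.0091), CHD7 (−0.0287 to 0.11), SMARCA5 (−0.0790 to 0.0460), SMARCA1 (−0.19 to 0.59), BAZ1A (−0.15 to 0.0093) and SRCAP (−0.12 to 0.0218), on the log2 scale. The cause was not tested. The widest intervals were those of SMARCA1, SMARCD3, DPF1 and BCL7C, with 8.29 to 12.0 CPM. The part of depth in them was not tested, and that of SMARCA1 ran −0.57 to 0.77 over all libraries and 0.19 to 0.98 without EV replicate 1.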
